A study of Mus musculus with 6 samples.

Results

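Collagens were examined as a family in ear skin of mice with a deletion, meant for lymphatic endothelium, of Vegfr2, a receptor for vascular growth factors. Members were all genes of the count table whose symbol has the form Col, a type number, the letter a and a chain number, and 44 of the 18482 genes listed met this rule. They were divided by known role into 8 fibrillar, 10 basement membrane, 7 cartilage and 19 other collagens. Of the 44, 42 had enough reads to be tested, and the 2 left out, Col6a4 and Col6a5, belong to the last group.

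RNA came from ear skin at postnatal day 21, and both groups had received tamoxifen. The lecko group (Vegfr2lecko in the titles) carried a deletion of Vegfr2, whose gene symbol is Kdr, meant for lymphatic endothelium. Controls were littermates labelled Control. Each group held 3 libraries of polyadenylated RNA. The sources used here give neither the Cre driver nor the animal or litter behind each library, and name a start of tamoxifen at postnatal day 1 or 10 without saying which applied. Thus p-values measure the spread between these 6 libraries, which may be partly technical.

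Collagens are trimeric proteins wound from repeats of glycine followed by a pair of other residues. Types I, III and V build the fibrils of the dermis, type IV forms the sheet of basement membranes, types VII and XVII fasten the epidermis to the dermis, and types II, IX and XI build the fibrils of cartilage, which the ear contains. Fibroblasts make most dermal collagen, and chains are hydroxylated and folded in the endoplasmic reticulum, trimmed outside the cell and crosslinked.

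Library totals were 17550952 to 17825135 estimated counts in lecko skin and 17242921 to 17678754 in control skin. Kdr was at 9.76, 11.2 and 10.2 CPM (counts relative to library size, scaled between libraries) in lecko skin, against 32.6, 31.3 and 38.5 CPM in control skin, a log2 fold change of -1.72 (SE 0.10). Its p, Benjamini-Hochberg adjusted over 14856 genes in edgeR's quasi-likelihood fit, was 0.00026. Which cells lost Kdr RNA was not tested, since bulk RNA does not separate lymphatic from blood endothelium. Counts of 4 Y-linked genes were 4, 21 and 9 in the lecko libraries, against 18, 4272 and 4564 in controls 1 to 3, so controls 2 and 3 stand apart from all other libraries as males do from females. As markers of the labelled tissue, summed fibroblast genes (10 genes) were at 3625 to 3864 CPM in lecko and 2785 to 3782 CPM in control skin. Summed basal keratinocyte genes (10 genes) were at 8547 to 8895 CPM in lecko and 8754 to 9793 CPM in control skin, and summed chondrocyte genes (12 genes) at 849 to 1154 CPM in lecko and 740 to 931 CPM in control skin. None of these markers was at 0 in all libraries, although Matn1, a cartilage matrix gene, averaged 0.019 CPM in both groups. In bulk tissue, fewer cells of a type and less RNA per cell cannot be told apart.

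Fibrillar collagen genes share an exon plan in which many coding exons are 54 bases long, each encoding 6 repeats that start with glycine. In the GENCODE vM21 transcripts used here, 47.4% of the 462 coding exons of the fibrillar genes had this length, as did 44.3% of 289 in the cartilage group, 13.8% of 701 in the other group and 4.56% of 548 in the basement membrane group. An example is shown for each chain of 4 pairs, taken from types I, V, IX and XI, because the read ratio within these pairs is taken up further on. Each is the transcript's earliest exon of 54 bases in reading frame in which each repeat starts with a glycine codon, read 5′ to 3′ on the coding strand, with the glycine codon that starts each repeat in capitals.
Col1a1: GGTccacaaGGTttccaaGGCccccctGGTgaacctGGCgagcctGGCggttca
Col1a2: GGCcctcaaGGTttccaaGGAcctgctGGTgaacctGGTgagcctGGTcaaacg
Col5a1: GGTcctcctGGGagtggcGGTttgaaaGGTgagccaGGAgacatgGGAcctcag
Col5a2: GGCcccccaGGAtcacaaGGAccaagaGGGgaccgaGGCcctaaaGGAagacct
Col9a1: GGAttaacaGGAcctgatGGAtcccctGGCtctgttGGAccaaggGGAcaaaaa
Col9a2: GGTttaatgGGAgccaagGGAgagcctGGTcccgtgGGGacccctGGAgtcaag
Col11a1: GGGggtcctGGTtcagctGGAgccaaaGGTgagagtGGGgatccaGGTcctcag
Col11a2: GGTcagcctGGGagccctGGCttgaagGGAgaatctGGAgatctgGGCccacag

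The exons shown lie, in GRCm38, at chr11:94939904-94939957 (Col1a1, plus strand, exon 8), chr6:4515481-4515534 (Col1a2, plus, exon 8), chr2:27965251-27965304 (Col5a1, plus, exon 15) and chr1:45434892-45434945 (Col5a2, minus, exon 6). Those of the cartilage chains lie at chr1:24202014-24202067 (Col9a1, plus, exon 11), chr4:121043696-121043749 (Col9a2, plus, exon 5), chr3:114108281-114108334 (Col11a1, plus, exon 15) and chr17:34051480-34051533 (Col11a2, plus, exon 13). The chains differ in base composition over the whole transcript. G and C made up 58.9% of Col1a1 and 55.7% of Col1a2, 58.0% of Col5a1 and 49.7% of Col5a2, 52.2% of Col9a1 and 62.7% of Col9a2, and 48.0% of Col11a1 and 62.9% of Col11a2.

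Collagens took a large share of the skin's messenger RNA, and the share overlapped between groups. They held 3.87, 3.62 and 3.60% of all counts in lecko libraries 1 to 3, against 3.48, 4.44 and 3.004% in controls 1 to 3. Col1a1, Col1a2 and Col3a1 alone made up 65.6 to 68.9% of the collagen counts in lecko and 67.1 to 71.9% in control skin. By mean CPM over the 6 libraries, Col3a1 ranked 2, Col1a2 ranked 4 and Col1a1 ranked 8 among all 18482 genes. Per length of transcript, levels ran from 1925 RPKM (CPM per kilobase of transcript) for Col3a1 in lecko skin and 1914 RPKM in control skin to 0.046 RPKM for Col6a4 in lecko skin and 0.062 RPKM in control skin.

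**Figure D1:**
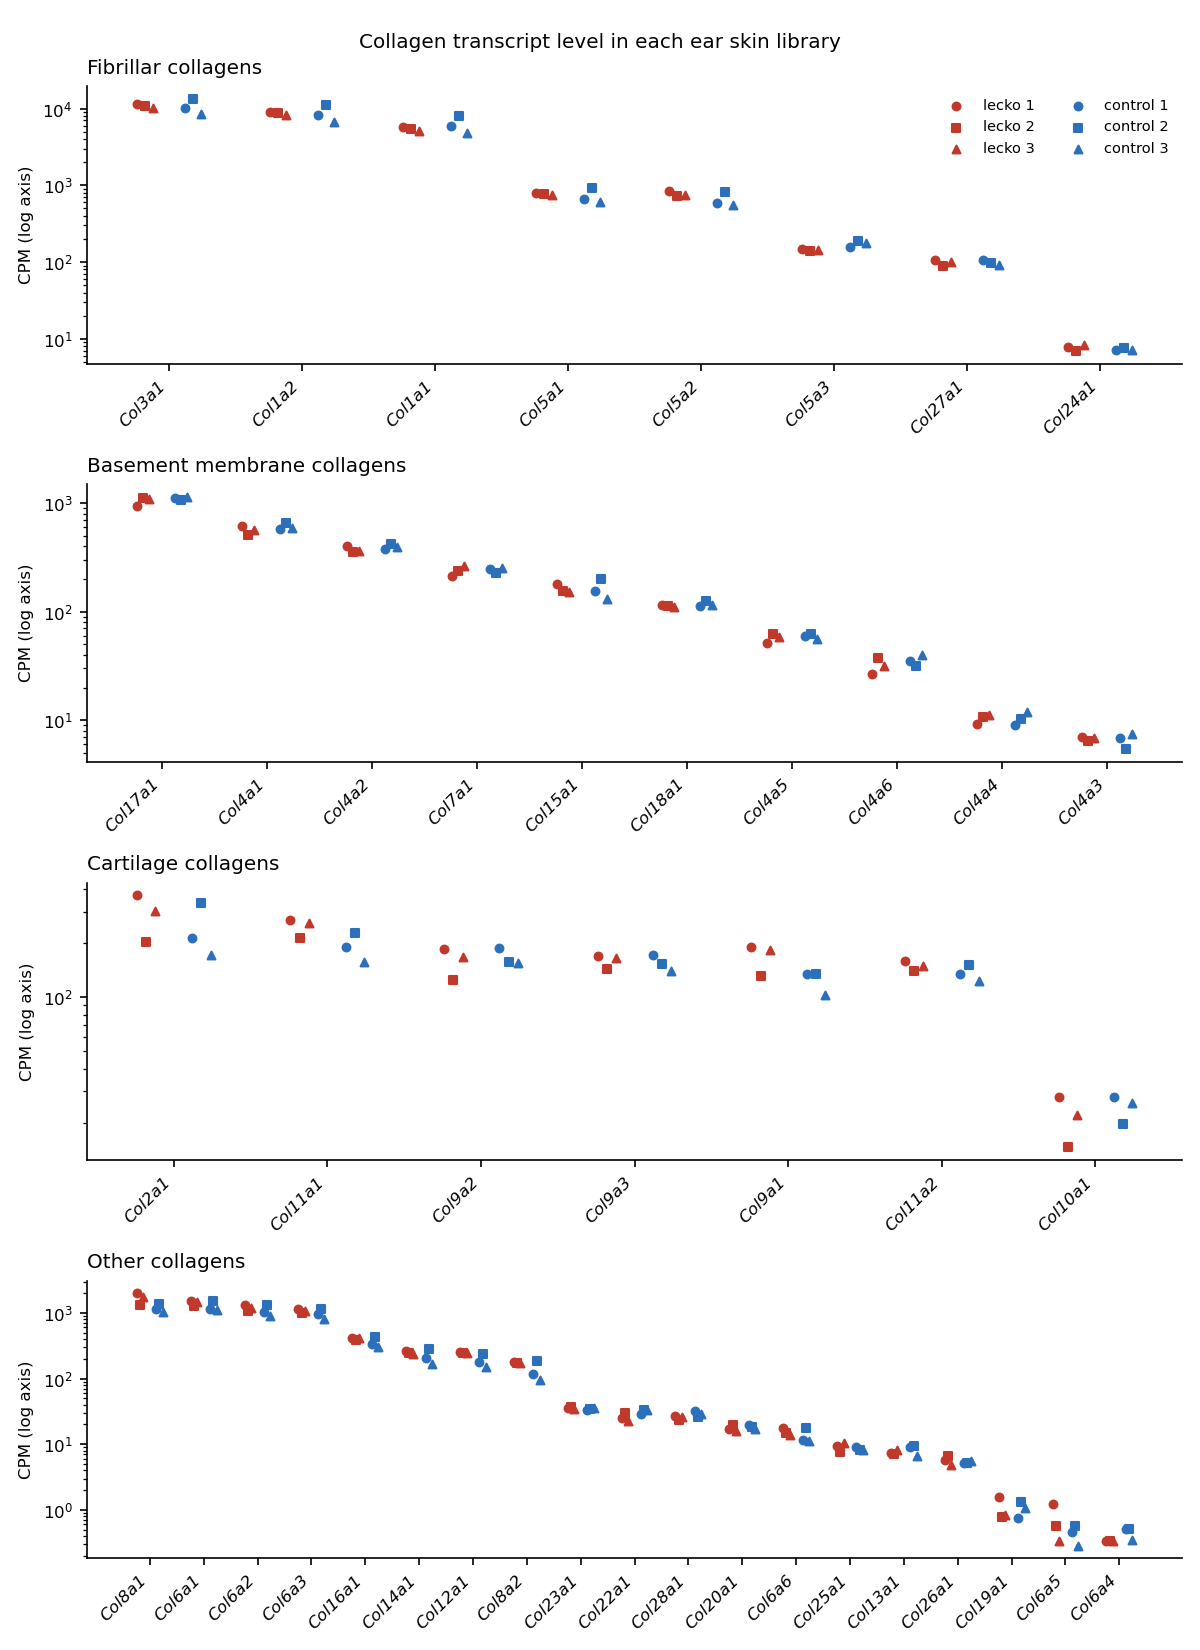
CPM (log axis) of all 44 collagen genes in each library, with lecko libraries in red left of control libraries in blue and the marker shape giving the library number within its group. Within fibrillar genes control 2 is the highest point for Col3a1 at 13460 CPM and control 3 the lowest at 8367 CPM, with the lecko libraries between them.

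No collagen gene passed the threshold of 0.05. By edgeR's quasi-likelihood test 0 of the 42 tested members were called, where 0.0202% of all tested genes were (0.0135% higher and 0.00673% lower). DESeq2 called 0 members, where it called 0.229% of the genes it tested (0.172% higher and 0.0572% lower), and limma-voom called 0 members, where it called 0.0202%. At an unadjusted p under 0.05, where 8.56% of all tested genes lay, 4 members were higher in lecko skin (Col8a1, Col12a1, Col9a1 and Col11a1; 4.89% of all tested genes were) and 2 were lower (Col5a3 and Col22a1; 3.68% of all tested genes were). In CPM, 2 of the 42 had no overlap between groups, where 14.6% of all tested genes had none. They were Col12a1 above (7.37% of all tested genes were) and Col5a3 below (7.23% were). The median log2 fold change was 0.00 over 8 fibrillar, -0.06 over 10 basement membrane, 0.13 over 7 cartilage and 0.13 over 17 other members, beside 0.01 over all 14856 tested genes, whose quartiles were -0.08 and 0.10. Single controls moved these medians: they were 0.15 (fibrillar), 0.20 (cartilage) and 0.28 (other) without control 2, and -0.10, 0.06 and 0.07 in the same order without control 3. Lecko 1 also moved them, to -0.04, 0.07 and 0.08 without it, and the basement membrane median was then -0.03.

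**Figure D2:**
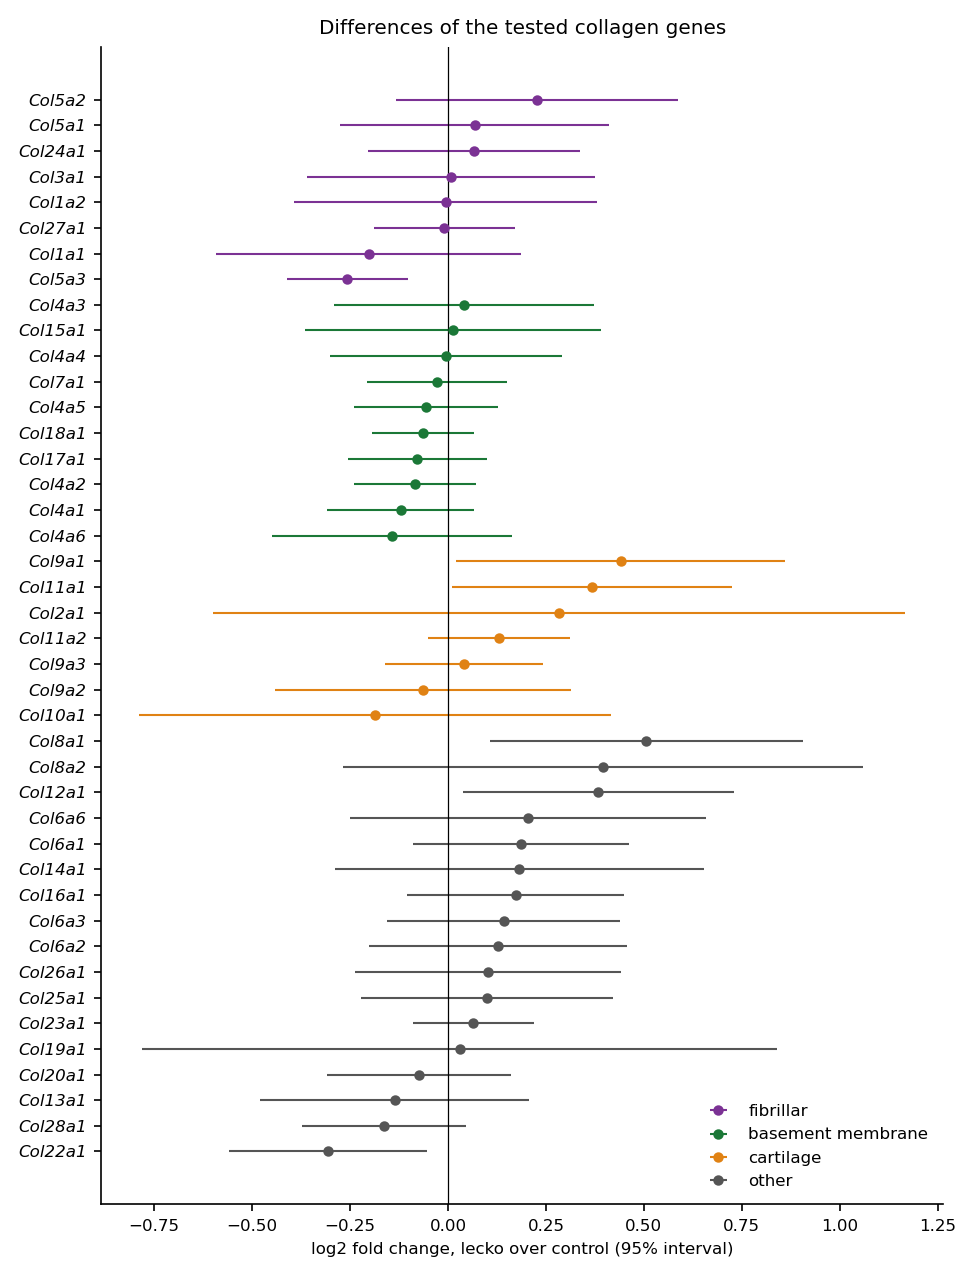
Log2 fold change, lecko over control, with its 95% interval from edgeR's quasi-likelihood fit, for the 42 tested collagen genes, by group. Intervals of 6 genes exclude 0, among them Col8a1 at 0.51 and Col5a3 at -0.26, and no gene passed after adjustment over all genes.

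The major dermal fibril genes Col1a1, Col1a2 and Col3a1 did not pass the test, and their control values spanned a wider range than their lecko values. Col3a1, the chain of type III collagen, was at 11290, 10700 and 10140 CPM in lecko skin, against 10130, 13460 and 8367 CPM in control skin. Its log2 fold change was 0.01, with a 95% interval of -0.36 to 0.38. Col1a2, a chain of type I collagen, was at 8896, 8654 and 8242 CPM in lecko skin, against 8281, 11000 and 6622 CPM in control skin (log2 -0.01, interval -0.39 to 0.38). For both genes all lecko values lay between the lowest and the highest control. Col1a1, the other type I chain, was at 5760, 5450 and 5140 CPM in lecko skin, against 5982, 7976 and 4854 CPM in control skin. Its log2 fold change was -0.20 (interval -0.59 to 0.19), and lecko values again fell inside the control range. Without control 2 it was 0.0050, and without control 3 it was -0.36. Control 2 was the highest control for 7 of the 8 fibrillar genes and control 3 the lowest for 6, with both true of 5, against 21.6% of all tested genes. The median fold between the highest and lowest library of a group was 1.12 in lecko and 1.51 in control skin for fibrillar genes. Summed fibroblast markers had the same order among controls, with 3782 CPM in control 2, 3118 CPM in control 1 and 2785 CPM in control 3. In lecko over control, 8 of 10 fibroblast markers had positive log2 fold changes. The part of fibroblast RNA in these values was not tested.

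Type V collagen sits inside type I fibrils and limits their width, and of its chains only Col5a3 did not overlap between groups. Col5a3, the minor chain, was at 149, 140 and 145 CPM in lecko skin, against 157, 186 and 175 CPM in control skin. The highest lecko value was under the lowest control value. The log2 fold change was -0.26 (SE 0.07), with adjusted p = 0.461 in edgeR, Benjamini-Hochberg, and the fold change was -0.12 with sex as a covariate. Col5a1 was at 785, 768 and 757 CPM in lecko skin, against 665, 926 and 612 CPM in control skin (log2 0.07, interval -0.27 to 0.41; -0.05 without control 3). Col5a2 was at 836, 722 and 755 CPM in lecko skin, against 596, 828 and 551 CPM in control skin (log2 0.23, interval -0.13 to 0.59). Both overlapped between groups through control 2. Per length, Col5a2 (116 RPKM in lecko and 99.4 RPKM in control skin) and Col5a1 (91.6 and 87.3 RPKM) stood above Col5a3 (23.6 and 28.2 RPKM). The remaining fibrillar genes, Col27a1 and Col24a1, had log2 fold changes of -0.01 and 0.07, and Col24a1 averaged 7.69 CPM in lecko and 7.35 CPM in control skin.

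Basement membrane collagens were the tightest group, with log2 fold changes from -0.14 to 0.04, 8 of 10 negative, and no member without overlap between groups. Col17a1, the transmembrane collagen of hemidesmosomes, was at 945, 1113 and 1094 CPM in lecko skin, against 1122, 1063 and 1142 CPM in control skin (log2 -0.08). Lecko 1 was below all other libraries, and lecko 2 and 3 lay inside the control range. Col7a1, which forms the anchoring fibrils of the epidermis, was at 214, 235 and 262 CPM in lecko skin, against 247, 229 and 251 CPM in control skin (log2 -0.03, interval -0.21 to 0.15). It had both its lowest and its highest value in a lecko library.

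Type IV collagen is made from 6 chains whose genes lie as head-to-head pairs that read away from each other. In RefSeq on GRCm38.p6, Col4a1 (chr8:11198423-11312889, minus) and Col4a2 (chr8:11312805-11449287, plus) overlap at their starts by 85 bases, and Col4a4 (chr1:82448419-82587034, minus) and Col4a3 (chr1:82586921-82722059, plus) by 114 bases. Col4a6 (chrX:141165403-141474095, minus) and Col4a5 (chrX:141475370-141689236, plus) are 1274 bases apart. Whether counting used strand is not stated in the labels, so reads in the short overlaps cannot be assigned by strand.

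The ubiquitous type IV chains were far above the others. Col4a1 was at 613, 508 and 565 CPM in lecko skin, against 583, 658 and 591 CPM in control skin (log2 -0.12, interval -0.31 to 0.07). Col4a2 was at 403, 354 and 362 CPM in lecko skin, against 378, 416 and 391.5 CPM in control skin (log2 -0.08, interval -0.24 to 0.07). In both genes lecko 2 was the lowest and control 2 the highest library. Per length, Col4a1 had 84.9 RPKM in lecko and 92.3 RPKM in control skin and Col4a2 57.8 and 61.3 RPKM. Col4a5 had 8.75 RPKM in lecko and 9.09 RPKM in control skin and Col4a6 4.82 and 5.32 RPKM, the pair known to form a separate network in skin. Col4a4 had 1.03 RPKM in each group, and Col4a3 0.789 RPKM in lecko and 0.767 RPKM in control skin, chains best known from the kidney glomerulus.

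Col18a1, the precursor of endostatin and found around vessels and epithelia, was at 115, 113 and 110 CPM in lecko skin, against 114, 125 and 114 CPM in control skin (log2 -0.06, interval -0.19 to 0.07). The related Col15a1 averaged 163 ± 16.2 CPM in lecko and 161 ± 34.1 CPM in control skin (SD, n = 3 each; log2 0.01). Summed over the group, basement membrane collagens were at 2564, 2597 and 2652 CPM in lecko skin, against 2710, 2799 and 2735 CPM in control skin. The sums did not overlap while each gene did. Their largest parts were Col17a1, averaging 1051 CPM in lecko and 1109 CPM in control skin, and Col4a1 (562 and 611 CPM). Beside these collagen sums, summed blood and pan-endothelial markers (10 genes) were at 345 to 379 CPM in lecko and 405 to 430 CPM in control skin. Pericyte and smooth muscle markers (10 genes) were at 666 to 732 CPM in lecko and 767 to 847 CPM in control skin, with 9 of 10 and 8 of 10 genes negative. Lymphatic endothelial markers (8 genes, 5 negative and 3 positive) were at 367 to 387.5 CPM in lecko and 403.5 to 455 CPM in control skin. The largest part of the lymphatic sum was Ccl21a, averaging 96.0 CPM in lecko and 143.7 CPM in control skin, and the gap between groups in that sum rests on this gene. Ccl21a was called lower by DESeq2 (adjusted p = 0.0113) and not by edgeR (adjusted p = 0.42, Benjamini-Hochberg). Schwann cell markers (8 genes, 6 negative) were at 778 to 839 CPM in lecko and 858 to 907 CPM in control skin. Skeletal muscle markers (10 genes, 10 negative) were at 4703 to 5959 CPM in lecko and 6208 to 7015 CPM in control skin. None of these sums overlapped between groups, while basal keratinocyte sums did, with 10 of 10 genes negative. Sums of adipocyte, suprabasal keratinocyte, fibroblast, chondrocyte, leukocyte, and bone and tendon markers overlapped too. Of all 14856 tested genes, 7707 had positive log2 fold changes and 14.6% did not overlap in CPM. No such share was taken for sums of genes. The part of these cell types in the collagen values was not tested.

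Cartilage collagens differed between libraries of one group by a median fold, highest over lowest, of 1.45 in lecko and 1.31 in control skin. In the same order these medians were 1.12 and 1.51 for fibrillar, 1.2 and 1.12 for basement membrane and 1.16 and 1.41 for other genes. Among cartilage genes the fold was 1.82 and 1.96 for Col2a1 but 1.13 and 1.22 for Col11a2. Col2a1, the main cartilage fibril chain, was at 371, 204 and 303 CPM in lecko skin, against 214, 336 and 172 CPM in control skin. Values ran from low to high within both groups, and the log2 fold change of 0.28 had an interval of -0.60 to 1.17. It was 0.60 without control 2, 0.49 without lecko 2, 0.09 without control 3 and 0.07 without lecko 1. Col11a1, which starts and spaces cartilage fibrils, was at 269, 213 and 260 CPM in lecko skin, against 190, 228 and 157 CPM in control skin. Its log2 fold change was 0.37 (SE 0.15), adjusted p = 0.575 in edgeR, Benjamini-Hochberg, with lecko 2 below control 2. Its partner Col11a2 was at 158.5, 140 and 150 CPM in lecko skin, against 135, 151 and 123.5 CPM in control skin (log2 0.13).

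Type IX collagen coats cartilage fibrils and is built from a chain of each of its genes. Col9a1 was at 190, 131.5 and 185 CPM in lecko skin, against 135, 135 and 103 CPM in control skin. Lecko 1 and 3 stood above all controls and lecko 2 did not (log2 0.44, SE 0.17, adjusted p = 0.562 in edgeR, Benjamini-Hochberg). Col9a2 was at 186, 125 and 168 CPM in lecko skin, against 189, 157 and 155 CPM in control skin (log2 -0.06). Col9a3 was at 170, 144 and 165 CPM in lecko skin, against 171, 154 and 140 CPM in control skin (log2 0.04). For all 3 genes lecko 2 had the lowest lecko value. Col10a1, a marker of hypertrophic chondrocytes, averaged 21.4 ± 6.58 CPM in lecko and 24.3 ± 4.23 CPM in control skin (SD, n = 3 each; log2 -0.19). Summed chondrocyte markers had the same low library, with 849 CPM in lecko 2 beside 1154 and 1004 CPM in lecko 1 and 3, and 907, 931 and 740 CPM in controls 1 to 3, and 10 of 11 tested genes were positive. The amount of ear cartilage per library was not measured, and its part was not tested.

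Among the other collagens, type VIII gave the largest fold change of the 42 tested members. Col8a1, a short-chain collagen known from endothelial and smooth muscle matrix, was at 1980, 1316 and 1725 CPM in lecko skin, against 1148, 1373 and 1015 CPM in control skin. Lecko 1 and 3 were above all controls, while lecko 2 was below control 2. Its log2 fold change was 0.51 (SE 0.17, interval 0.11 to 0.91), adjusted p = 0.526 in edgeR, Benjamini-Hochberg. Its partner Col8a2 was at 178, 171 and 170 CPM in lecko skin, against 115, 186 and 93.4 CPM in control skin. The lecko values were nearly equal, and control 2 was above them (log2 0.40, interval -0.27 to 1.06; 0.20 without control 3).

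Type XII collagen binds the surface of type I fibrils, and Col12a1 was at 250, 241 and 246.5 CPM in lecko skin, against 181, 233 and 151 CPM in control skin. All lecko values were above all controls, by a narrow gap to control 2. The log2 fold change was 0.38 (SE 0.15), adjusted p = 0.551 in edgeR, Benjamini-Hochberg. Beside the higher values of Col8a1, Col8a2 and Col12a1, summed leukocyte markers (10 genes) were at 573, 440 and 483 CPM in lecko skin, against 356, 456 and 295 CPM in control skin, with 10 of 10 genes positive and a median log2 fold change of 0.48. Of these markers 0 were called by edgeR and 1, Ptprc, by DESeq2 (adjusted p = 0.0214). Fibroblast sums are given above, and the part of either in the collagen values was not tested. The related fibril-binding genes Col14a1 and Col16a1 had log2 fold changes of 0.18 and 0.17, both overlapping. Col22a1, known from muscle-tendon junctions, was at 24.8, 29.9 and 22.6 CPM in lecko skin, against 29.0, 33.5 and 33.3 CPM in control skin. Lecko 2 overlapped control 1, and the fold change was -0.17 with sex as a covariate (log2 -0.31 without it, SE 0.11, adjusted p = 0.528 in edgeR, Benjamini-Hochberg). The lower skeletal muscle marker sums in lecko skin, given above, stand beside this value, and their part in it was not tested.

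Type VI collagen forms beaded filaments around cells. Col6a1 was at 1490, 1292 and 1479 CPM in lecko skin, against 1158, 1491 and 1095 CPM in control skin (log2 0.19). Col6a2 was at 1307, 1083 and 1180 CPM in lecko skin, against 1030, 1328 and 910 CPM in control skin (log2 0.13). Col6a3 was at 1147, 1008 and 1084 CPM in lecko skin, against 976, 1161 and 797.5 CPM in control skin (log2 0.14). In each of these genes control 2 had the highest value of all libraries. Without control 2 the log2 fold changes were 0.33 for Col6a1, 0.29 for Col6a2 and 0.28 for Col6a3, and without control 3 they were 0.10, 0.01 and 0.01 in the same order. The later-described chains were scarce, with Col6a6 at 1.77 RPKM in lecko and 1.53 RPKM in control skin, and Col6a4 and Col6a5 at 5 to 22 reads per library. The other 8 genes tested in this group, Col13a1, Col19a1, Col20a1, Col23a1, Col25a1, Col26a1, Col28a1 and Col6a6, had log2 fold changes from -0.16 to 0.20 with intervals that include 0.

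**Figure D3:**
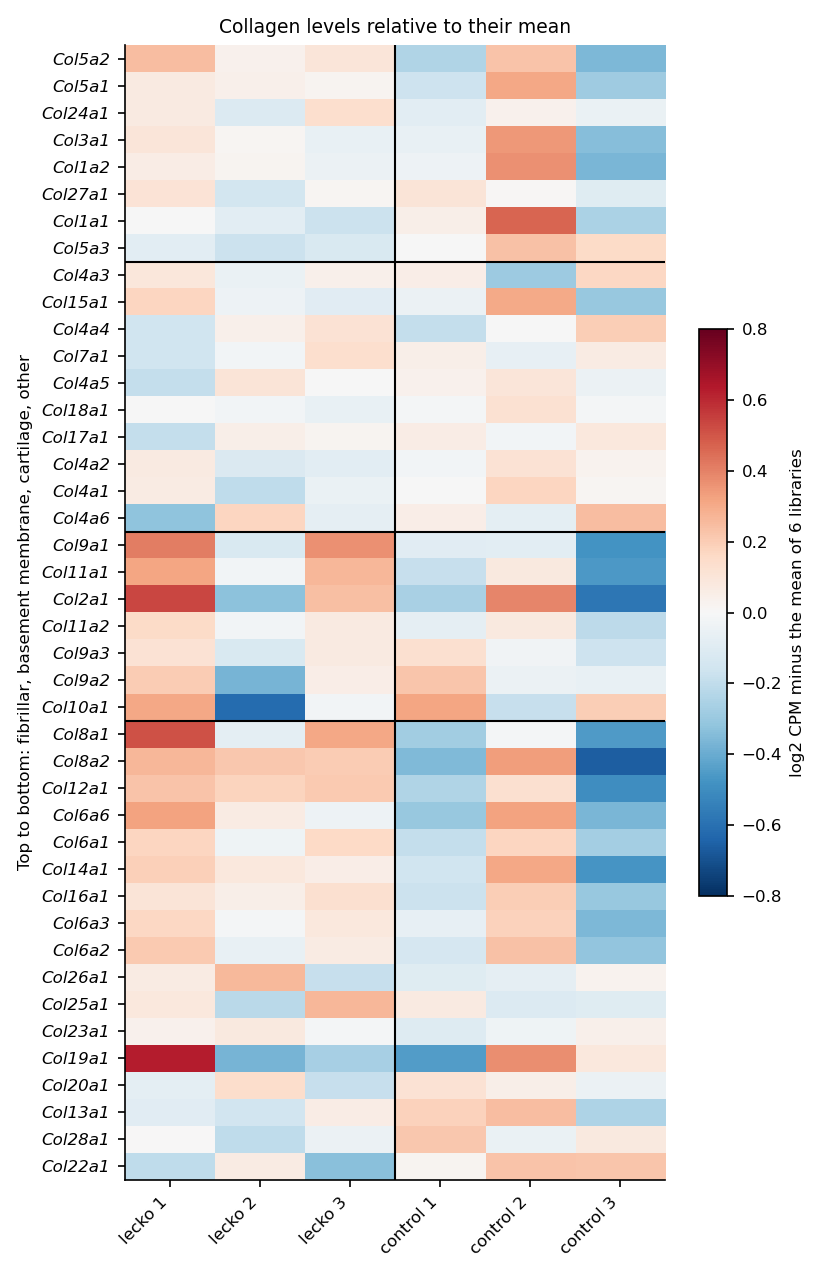
Log2 CPM of each tested collagen gene minus its mean over the 6 libraries (color scale cut at -0.8 and 0.8), lecko libraries left of controls, genes grouped from top to bottom as fibrillar, basement membrane, cartilage and other. Control 2 is above and control 3 below the mean for Col3a1, Col1a2, Col8a2, Col14a1 and the type VI genes Col6a1, Col6a2 and Col6a3.

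A single control decided the count of calls. Without control 2, edgeR's quasi-likelihood test called 2 collagen genes higher, Col8a2 (log2 0.72, SE 0.09, Benjamini-Hochberg adjusted p = 0.03) and Col12a1 (log2 0.56, SE 0.08, adjusted p = 0.0419), and 13 members were higher at an unadjusted p under 0.05. In that fit 0.24% of all genes were called higher and 7.32% were higher at an unadjusted p under 0.05. Col8a2 is named because of this value. With any other library left out 0 members were called. The count of members higher at an unadjusted p under 0.05, 4 in all libraries, was then 0 without control 1, lecko 1 or lecko 3, 1 without control 3 and 3 without lecko 2, where 2.8 to 5.44% of all tested genes were. With sex as a covariate it was 0, where 3.14% of all tested genes were. With control 1, whose Y-linked counts match the lecko libraries, as the sole control, 7 members were higher at an unadjusted p under 0.05 (4.15% of all tested genes were) and 0 were called (0.0197% were). The 7 included Col12a1 and Col11a1 but neither Col8a1 nor Col9a1. In that fit 1 member was lower at an unadjusted p under 0.05 (2.36% of all tested genes were), Col28a1, named because of this value, and neither Col5a3 nor Col22a1 was.

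Ratios between chains of the same collagen type do not depend on how libraries are scaled, and in 5 of 12 pairs they did not overlap between groups. Over all 861 pairs of tested members, 16.6% did not overlap. The 12 pairs were chosen after the values had been seen, so the ratios are a description without a test. Col1a1 gave 0.647, 0.630 and 0.624 reads per Col1a2 read in lecko skin, against 0.722, 0.725 and 0.733 in control skin. The controls, whose Col1a1 levels ran from 4854 to 7976 CPM, were nearly equal in this ratio, and all lecko libraries were below them. Col5a1 gave 0.939, 1.06 and 1.00 reads per Col5a2 read in lecko skin, against 1.115, 1.117 and 1.111 in control skin. Col5a3 gave 0.190, 0.182 and 0.191 reads per Col5a1 read in lecko skin, against 0.237, 0.201 and 0.286 in control skin. Col9a1 gave 1.02, 1.05 and 1.10 reads per Col9a2 read in lecko skin, against 0.715, 0.865 and 0.665 in control skin. Col11a1 gave 1.70, 1.52 and 1.74 reads per Col11a2 read in lecko skin, against 1.41, 1.51 and 1.27 in control skin, where lecko 2 and control 2 almost touched. The ratio of Col4a1 to Col4a2, whose genes share a start region, overlapped at 1.52, 1.43 and 1.56 in lecko and 1.54, 1.58 and 1.51 in control skin.

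**Figure D4:**
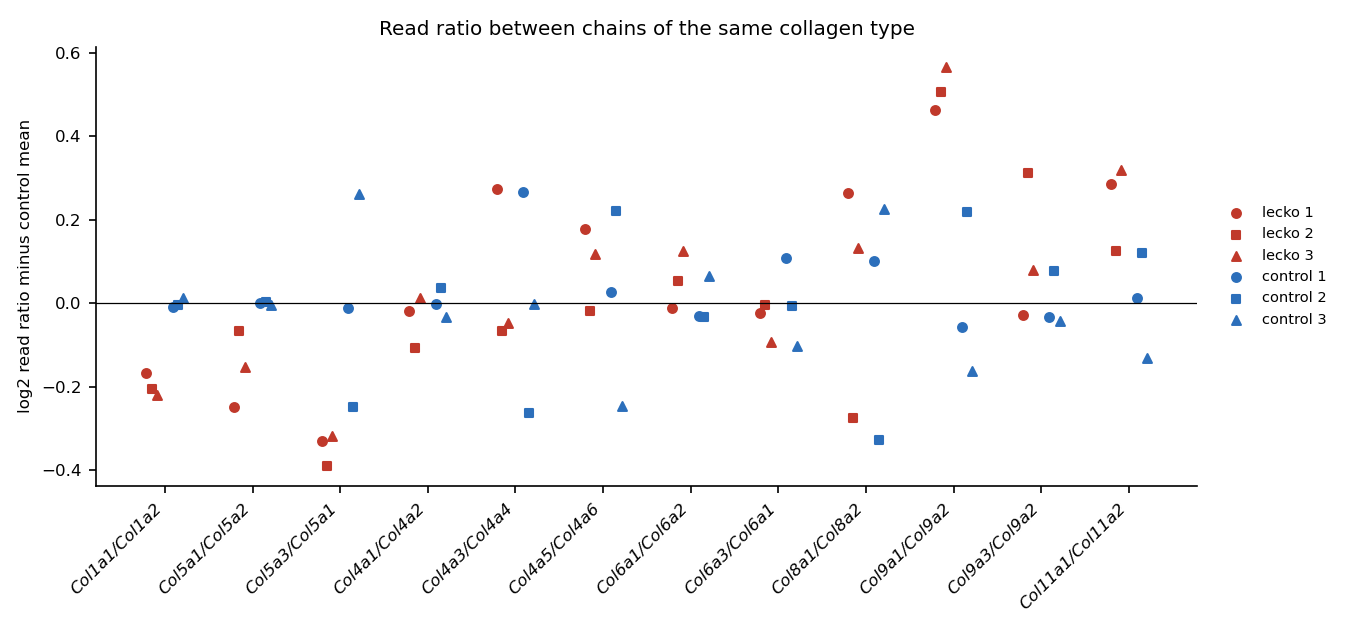
Log2 read ratio between chains of the same collagen type in each library, minus the control mean, with lecko libraries in red left of controls in blue. The 3 lecko libraries lie below all controls for Col1a1/Col1a2, Col5a1/Col5a2 and Col5a3/Col5a1, and above them for Col9a1/Col9a2 and Col11a1/Col11a2.

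Base composition is set beside these ratios, and its part in them was not tested. In all 5 pairs that did not overlap, the chain richer in G and C was the one with relatively fewer reads in lecko skin. This held in 9 of the 12 pairs and in 58.2% of the 861 pairs of members, overlapping or not. The share among the 143 pairs of members without overlap was not taken. The 5 pairs are not separate, since the type V pairs share Col5a1. Col8a1 and Col8a2, with 46.75% and 59.14% G and C, overlapped in ratio, with a log2 difference of 0.04. The SD of this log2 ratio was 0.28 in lecko and 0.29 in control skin. Col5a3 and Col5a1, with 61.59% and 58.02%, differed by -0.35. Across the 42 tested members, the log2 fold change and the transcript's G and C share had a Pearson r of -0.28 and a Spearman rho of -0.23, as a description across genes that share the same libraries. All tested genes showed the like: the median log2 fold change was 0.05 in the quintile of genes poorest in G and C and -0.05 in the richest quintile. With a correction for composition and length, the fitted difference between Col1a1 and Col1a2 was -0.18, against -0.20 without it. The corrected and uncorrected differences were -0.11 and -0.16 for Col5a1 and Col5a2, -0.31 and -0.33 for Col5a3 and Col5a1, 0.42 and 0.51 for Col9a1 and Col9a2, and 0.16 and 0.24 for Col11a1 and Col11a2.

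Genes that modify, export, crosslink and bind collagen gave no call either, by edgeR's quasi-likelihood test or by DESeq2. Of 19 genes for hydroxylation and folding, 0 had an unadjusted p under 0.05, and their median log2 fold change was -0.02. Those with the smallest p were Tmem38b, an ion channel of the endoplasmic reticulum (log2 -0.18), and Plod3, a lysyl hydroxylase (log2 -0.09). Of 13 genes for export and propeptide removal (median 0.06), 3 were higher at an unadjusted p under 0.05 and 0 lower, where 4.89% and 3.68% of all tested genes were. Pcolce2, an enhancer of propeptide cleavage, was at 94.1, 85.4 and 88.5 CPM in lecko skin, against 68.4, 83.4 and 64.7 CPM in control skin, without overlap (log2 0.31, SE 0.09, adjusted p = 0.504 in edgeR, Benjamini-Hochberg). Adamts3, a procollagen protease that also processes VEGFC, the main lymphatic growth factor, was at 41.0, 31.2 and 33.9 CPM in lecko skin, against 21.1, 31.9 and 21.9 CPM in control skin. Lecko 2 lay below control 2 (log2 0.50, SE 0.18).

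Of 6 crosslinking genes (median 0.08) 0 had an unadjusted p under 0.05, with Loxl2 at log2 0.28 and Loxl4 at log2 0.12, both lysyl oxidases. Of 9 receptor and uptake genes (median 0.16), 1 was higher at an unadjusted p under 0.05, where 4.89% of all tested genes were. This was Ddr2, a receptor kinase for fibrillar collagen, at 129, 115 and 125 CPM in lecko skin, against 98.8, 108 and 97.1 CPM in control skin. Its values did not overlap (log2 0.28, SE 0.07, adjusted p = 0.385 in edgeR, Benjamini-Hochberg). Mrc2, an endocytic collagen receptor, had a log2 fold change of 0.19.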

How the data were processed

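Polyadenylated RNA of ear skin was sequenced in 3 lecko and 3 control libraries, grouped by sample title. The deposited values are estimated counts of each gene: 9.604 to 10.52% of them per library are not whole numbers. Per the submitters' processing notes, HISAT2 2.2.1, Bowtie2 2.4.5, RSEM 1.3.1 and GRCm38.p6 were used, with roles not given in the sources used here. Such estimates can split reads between near-identical genes.

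Counts were rounded, filtered with filterByExpr (minimum count 10, minimum total 15), scaled by TMM and tested on group alone by robust quasi-likelihood in edgeR 4.0.16 (14856 genes, Benjamini-Hochberg, threshold 0.05) in R 4.3.3. Replicate pairs differed by 8.43 to 17.45 times the sampling variance, more than repeat sequencing of a single library would give. Whether the libraries came from separate animals cannot be read from these values. CPM use unrounded counts and TMM sizes. RPKM use the longest coding transcript in GENCODE vM21, matched by symbol for 96.4% of genes and all 44 collagens. Gene positions are from RefSeq, GRCm38.p6, and exon positions and numbers are from GENCODE vM21. Named were, per group, the 4 most abundant members and the 3 of smallest p, and 2 genes per pathway list. Alternatives were DESeq2 1.42.0, limma-voom (limma 3.58.1), other scalings and filters, covariates and leaving out each library. Scripts were tested on simulated data. Members and lists were chosen with earlier results of these data known.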

Additional observations from a re-analysis of the deposited data

How the results depend on the processing

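Of 20 alternatives, 2 were chosen after seeing the data: a correction for G and C share and length, and library size without skeletal muscle markers. No alternative called a collagen gene lower, and the fit without control 2 alone called any higher (range 0 to 2 with single libraries left out). Among all genes, 2 were called higher and 1 lower in the reported fit, 24 and 8 by DESeq2, and 2 to 36 and 1 to 5 with single libraries left out. Members higher at an unadjusted p under 0.05 (4 as reported) were 2 without a filter on low counts, 0 with sex as a covariate, 7 with control 1 as the sole control, which is assumed to vary like the other libraries, and 0 to 13 with single libraries left out. Members lower (Col5a3 and Col22a1, 2 as reported) were 1 with sex as a covariate, Col28a1 in place of the reported pair. The Col28a1 log2 fold change was -0.29 in that fit and -0.30 with the sole control. With single libraries left out the count of members lower was 1 to 2. Col5a3 was among them each time, but Col22a1 only without control 1 or lecko 2. The other member was Col28a1 without control 2, Col1a1 without control 3 and Col4a1 without lecko 1. With single libraries left out, group medians were -0.0993 to 0.1499 (fibrillar), -0.0854 to -0.0277 (basement membrane), 0.0619 to 0.2024 (cartilage) and 0.0722 to 0.28 (other).

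Through all alternatives 24 collagen genes were followed, those of the naming rule and Col8a2, with 8 pathway genes. Of these, 7 collagen genes and Loxl4 changed sign under some alternative, among them Col1a1, reported at -0.2023, and Loxl4, reported at 0.1164. Collagen genes outside the 24 changed sign as well and are not in this count. Col10a1 went from -0.186 to 0.0279 without lecko 2. Without control 1, Col15a1 went from 0.0129 to -0.0183 and Col27a1 from -0.0091 to 0.0365. The Col1a2 log2 fold change was 0.0241 by limma-voom, 0.0022 with library size without collagens, 0.0015 without skeletal muscle markers, 0.0541 with sex as a covariate and 0.0477 with the sole control. Col9a3 was -0.1036 with sex as a covariate and -0.1102 with the sole control, and the Loxl4 log2 fold change was -0.0899 and -0.0963. Col3a1 was -0.0154 with the composition correction. With single libraries left out, ranges were -0.166 to 0.2027 for Col1a2, -0.1396 to 0.208 for Col3a1, -0.3572 to 0.005 for Col1a1, -0.0473 to 0.266 for Col5a1, -0.1068 to 0.0306 for Col7a1, -0.1988 to 0.0847 for Col9a2 and -0.0276 to 0.1135 for Col9a3. The cause was not tested.

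Same-numbered libraries correlated at 0.337, -0.072 and 0.035 in their deviations from group means. The labels give no litter or batch, so these values cannot decide whether same-numbered libraries share either. With the replicate block, 1 member was higher at an unadjusted p under 0.05, Col1a2 was at 0.0245 and 0 collagen genes were called.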
